A study of Homo sapiens with 17 samples.

Results

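The genes described here are 40 genes of homologous recombination, the Fanconi anaemia pathway, the DNA damage checkpoint and neighbouring repair routes, followed through knockdown of the transcription factors CREB1 and FOXA1 in prostate cancer cells. They were taken by symbol from the deposited gene count tables, and all 40 stood among the 23230 gene rows. Of the 40, 39 passed the filter on low counts and were tested. RAD51D, a gene of the strand-exchange step, did not pass, with 1 to 12 counts per library and 64 counts in all. Rows under its older symbol RAD51L3 and for the read-through transcript RAD51L3-RFFL were listed at 0, while the row of the neighbouring gene RFFL held 183 to 586 counts per library.

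LNCaP is an established prostate cancer line whose growth needs androgen, and LNCaP-abl is an androgen-independent derivative of it. LNCaP was maintained with 10% serum and used between passages 32 and 34, and LNCaP-abl was maintained with 10% charcoal-stripped serum, which is poor in steroid hormones, and used between passages 62 and 64. Each line was given a control siRNA (siControl), an siRNA to CREB1 (siCREB1) or an siRNA to FOXA1 (siFOXA1), in each case at 40 nM for 3 days and with 5% charcoal-stripped serum, so that all 6 groups were in hormone-poor medium when RNA was taken. Each group had 2 RNA-seq libraries, 12 in all, and nothing in the labels says that they came from separate cultures, so p-values measure only the spread between these libraries.

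Homologous recombination mends DNA breaks by copying an intact sister chromatid and works mainly in the S and G2 phases of the cell cycle. The MRE11-RAD50-NBN complex senses the break, nucleases trim the ends to leave single-stranded tails, and BRCA1, PALB2 and BRCA2 prepare these tails for strand exchange. In the Fanconi anaemia pathway a core complex attaches ubiquitin to FANCD2 and FANCI at DNA crosslinks, and the kinases ATM and ATR signal damage to CHEK2 and CHEK1, which hold back the cell cycle. CREB1 binds the cyclic AMP response element (CRE), and FOXA1 is a forkhead pioneer factor that opens chromatin in luminal prostate cells.

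Because CREB1 and FOXA1 both act through DNA sites, the promoters of the genes were read first. RefSeq windows on GRCh38.p14, from 250 bases before to 50 bases after a transcript start, were found for 35 of the 40 genes (MRE11A under its current symbol MRE11). RAD54B, FANCI, NBN, DNA2 and PRKDC had none. The full CRE, TGACGTCA, searched on both strands, stood in windows of 4 of the 35 genes (11.4%) and in 2.25% of the 27305 genes in the table. The carriers were EXO1, RAD51C, XRCC2 and LIG4. The E2F-type site TTTCCCGC stood in 4 of 35 genes (XRCC2, FANCC, FANCD2 and MSH6), against 1.98% of all genes. The forkhead site TGTTTAC stood in 0 of the 35 genes and in 4.19% of all genes. A match is a description of letters in these windows and not evidence of binding. The sequences around the full CREs, and around the E2F-type site of FANCD2, are shown. The changes of these genes after siCREB1 are given further on. All read 5′ to 3′ on the strand of the gene, with the motif in capitals.

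EXO1: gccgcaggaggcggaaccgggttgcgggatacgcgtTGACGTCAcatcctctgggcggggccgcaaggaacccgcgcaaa
XRCC2: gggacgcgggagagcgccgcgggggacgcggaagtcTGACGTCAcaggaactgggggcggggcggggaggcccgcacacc
RAD51C: cgctttacgtcTGACGTCAcgccgcacgcc
LIG4: agcttcaggctTGACGTCAggtgggaaggg
FANCD2: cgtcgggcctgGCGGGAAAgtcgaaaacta

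The EXO1 stretch is chr1:241848114-241848193 on the plus strand, and its CRE begins 54 bases before the transcript start. XRCC2 is shown at chr7:152676233-152676312 on the minus strand, with the CRE 135 bases before the start. The RAD51C stretch is chr17:58692561-58692590 on the plus strand, where the CRE begins 30 bases before the second annotated start and 1 base before the first, so that it spans the first. LIG4 is shown at chr13:108215474-108215503 on the minus strand, 120 bases before the third of its annotated starts and thus inside the span of its longer transcripts. FANCD2 is shown at chr3:10026424-10026453 on the plus strand, and the capitals are the reverse complement of TTTCCCGC, beginning 2 bases before a start.

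Reads assigned to genes numbered 9092597 to 37314039 per library. Both extremes were LNCaP-abl siControl libraries, 37314039 in the first and 9092597 in the second. The LNCaP siControl libraries had 27555950 and 15200856. A fit without the first siControl library of a line therefore keeps only its smaller control. CREB1 stood at 80.9 and 85.3 CPM (reads scaled to the library total, with TMM factors) in LNCaP siControl and at 38.7 and 29.8 CPM after siCREB1. In LNCaP-abl it stood at 78.8 and 79.7 CPM and then at 46.3 and 43.9 CPM. FOXA1 stood at 799 and 695 CPM in LNCaP siControl and at 215 and 211 CPM after siFOXA1, and in LNCaP-abl at 556 and 504 CPM and then at 196 and 229 CPM. CREB1 was also lower after siFOXA1, by 0.44 on the log2 scale in each line. Luminal prostate markers summed to 2300 to 3907 CPM in each library, with FOLH1 alone at 853 to 1449 CPM. KLK2, of the same list, was at 0.663 to 6.27 CPM over the libraries of both lines. KLK3, an androgen-driven luminal marker, was at 0.111 to 0.993 CPM in LNCaP-abl. In LNCaP KLK3 stood at 70.5 and 73.9 CPM under siControl, 16.1 and 27.0 CPM after siCREB1 and 61.7 and 87.4 CPM after siFOXA1. Basal markers KRT5, KRT14 and TP63 summed to at most 1.10 CPM. A list of 8 blood and neutrophil markers summed to 10.3 CPM in the first siControl library of LNCaP and 11.6 CPM in that of LNCaP-abl, against 2.74 to 7.49 CPM elsewhere. HBB was at 0 in each knockdown group, CSF3R and S100A8 also in LNCaP after siCREB1, PTPRC and CD14 in LNCaP after siFOXA1, S100A8 and CD74 in LNCaP-abl after siCREB1, and CSF3R, CD14 and CD74 in LNCaP-abl after siFOXA1. The 3 endothelial markers summed to 31.4 and 28.7 CPM in LNCaP siControl, 12.2 and 16.6 CPM after siCREB1 and 3.25 and 2.71 CPM after siFOXA1, nearly all of it VWF, with CDH5 at no more than 0.064 CPM, and to at most 1.5 CPM in LNCaP-abl. The 6 fibroblast markers summed to 11.2 to 99.0 CPM, mostly COL1A1, with COL1A2 at 0 throughout, and the 4 neuroendocrine markers to 52.1 to 109 CPM. The part of these markers in the results was not tested. Counts of called genes are therefore given also without those 2 siControl libraries.

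BRCA1 and BRCA2 RNA fell after either knockdown in either line, whereas most of the other genes changed with only some of the knockdowns. Calls rest on edgeR's quasi-likelihood test, with Benjamini-Hochberg adjustment over all 15550 genes tested and a threshold of 0.05 on the adjusted p. In LNCaP after siCREB1, 24 of 39 genes fell and 1 rose, where 19.8% of all tested genes fell and 17.8% rose. Their median log2 change was -0.40, beside -0.00 over all genes. After siFOXA1 in LNCaP-abl, 21 fell and 3 rose, against 26.5% and 29.9% of all genes, and the median was -0.31 beside 0.03. In LNCaP-abl after siCREB1, 13 fell and 3 rose, beside 23.7% and 27.5% of all genes, with a median of -0.14. After siFOXA1 in LNCaP, 11 fell and 5 rose, beside 25.5% and 24.4%, with a median of -0.14. The last of these counts, 11 of 39, lies near the share over all genes. Falls of 1 log2 unit or more numbered 7 in LNCaP after siCREB1 (2.79% of all genes), 9 in LNCaP-abl after siFOXA1 (7.10%), 2 in LNCaP-abl after siCREB1 (4.96%) and 0 in LNCaP after siFOXA1 (5.57%).

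The 2 comparisons within a line share its siControl libraries. For fits with a library left out, here and further on, shares of all genes called in each direction were not counted. Counts from those fits therefore have no background of their own. In LNCaP-abl after siCREB1, 23.7% of all genes fell with all libraries kept. Without the first siControl library of that line, the falls among the 39 tested genes did not exceed that share. Leaving out the first siControl library of both lines gave 20 falls in LNCaP after siCREB1, 19 in LNCaP-abl after siFOXA1, 9 in LNCaP-abl after siCREB1 and 11 in LNCaP after siFOXA1. With only the first LNCaP-abl siControl library left out, the siCREB1 falls in LNCaP-abl numbered 8. The median in LNCaP after siFOXA1 moved to -0.09 without the second siControl library and to -0.03 without the first siFOXA1 library. The single rise in LNCaP after siCREB1, RAD51C, was not called without the second siControl library or without the first siCREB1 library, and 2 rises were called without either of the others.

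ATM, BRCA1, BRCA2, FANCD2 and RAD50 were called lower in all 4 knockdown comparisons (5 of 39 genes, beside 6.08% of all genes, with siControl libraries shared within a line). The FANCD2 and RAD50 calls in LNCaP-abl after siCREB1 were lost in some fits with 1 library left out. Those of ATM, BRCA1 and BRCA2 held in every such fit. FANCA, FANCC, FANCF and PALB2 were called in none. BARD1, CHEK1, MSH6 and RAD54B were called lower in some and higher in others. The shares of all genes called in none, or in both directions, were not counted. In these bulk samples, fewer cells of a type and less RNA per cell cannot be told apart.

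Cycling-cell markers moved in the same libraries. The summed level of 14 G2 and mitosis genes was 400 and 361 CPM in LNCaP siControl, 63.4 and 77.2 CPM after siCREB1 and 222 and 238 CPM after siFOXA1. In LNCaP-abl the sum was 750 and 721 CPM, 355 and 261 CPM after siCREB1 and 144 and 156 CPM after siFOXA1. In LNCaP-abl the 14 S phase genes summed to more after siCREB1 and to less after siFOXA1. They stood at 402 and 401 CPM under siControl, 618 and 552 CPM after siCREB1 and 315 and 346 CPM after siFOXA1. In LNCaP they summed to 456 and 468 CPM, 323 and 332 CPM, and 447 and 475 CPM. Of the G2 and mitosis genes, 14 of 14 fell in LNCaP after siCREB1, 11 in LNCaP after siFOXA1, 13 in LNCaP-abl after siCREB1 and 14 in LNCaP-abl after siFOXA1. Of the S phase genes, 12 fell in LNCaP after siCREB1 and 12 rose in LNCaP-abl after siCREB1. After siFOXA1 8 fell and 1 rose in LNCaP-abl, and 1 fell and 1 rose in LNCaP. Of all tested genes in LNCaP, 19.8% fell after siCREB1, and 25.5% fell and 24.4% rose after siFOXA1. In LNCaP-abl 23.7% fell and 27.5% rose after siCREB1, and 26.5% fell and 29.9% rose after siFOXA1. None of the cycling-cell markers was at 0 in a group. Their part in the changes of the repair genes was not tested.

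**Figure D1:**
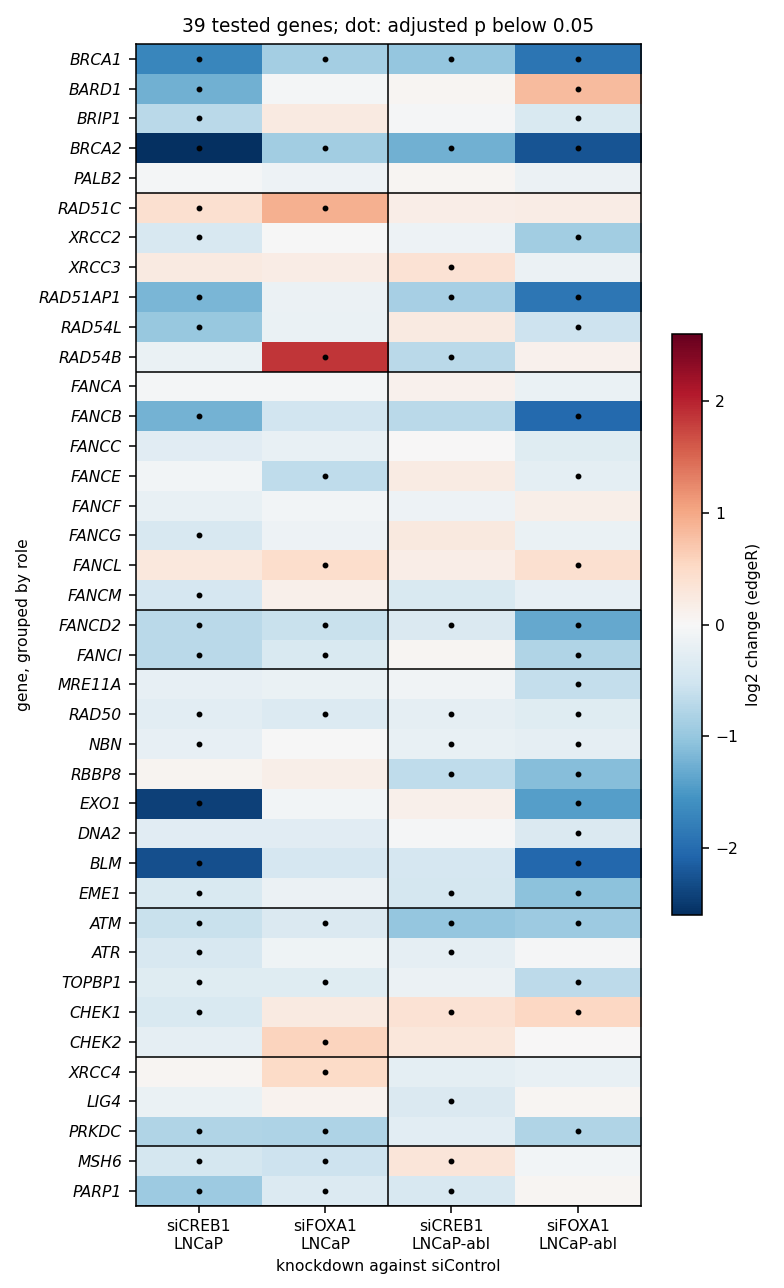
Log2 change of the 39 tested genes (rows, grouped by role) after each knockdown against siControl of the same line (columns), from blue for lower to red for higher; a dot marks an adjusted p below 0.05. BRCA1, BRCA2, ATM, FANCD2 and RAD50 carry a dot on blue in each of the 4 columns.

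BRCA1, the ubiquitin ligase that starts recombination at a break, stood at 12.9 and 13.5 CPM in LNCaP siControl, 3.35 and 4.74 CPM after siCREB1 and 5.86 and 8.26 CPM after siFOXA1. In LNCaP-abl it stood at 28.4 and 25.6 CPM, then at 15.7 and 11.7 CPM and at 7.08 and 7.52 CPM. In neither line did a knockdown library reach the level of a control library. The change after siCREB1 was -1.70 in LNCaP (SE 0.19, adjusted p = 1.96e-05) and -1.0 in LNCaP-abl (SE 0.16, adjusted p = 0.000175). After siFOXA1 it was -0.89 in LNCaP (SE 0.18, adjusted p = 0.00109) and -1.90 in LNCaP-abl, where 26.8% of the control level was left. A BRCA1 pseudogene exists, and the handling of reads shared with it was not stated.

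BRCA2, which acts on single-stranded DNA ahead of strand exchange, had the lowest relative level of the 39 genes in LNCaP after siCREB1 and in LNCaP-abl after siFOXA1. It stood at 7.18 and 6.15 CPM in LNCaP siControl, 1.03 and 1.20 CPM after siCREB1 and 3.03 and 4.17 CPM after siFOXA1. LNCaP-abl had 8.61 and 10.0 CPM, 4.33 and 3.32 CPM, and 1.79 and 2.03 CPM. In LNCaP siCREB1 left 16.7% of the control level (log2 change -2.59, SE 0.22, adjusted p = 1.83e-06), and siFOXA1 left 53.7%. The order was the other way round in LNCaP-abl, where siCREB1 left 41.8% and siFOXA1 left 21.0%.

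BARD1, the obligate partner of BRCA1, did not follow it. It stood at 171 and 164 CPM in LNCaP siControl, 67.7 and 72.8 CPM after siCREB1 and 159 and 165 CPM after siFOXA1. LNCaP-abl had 67.8 and 65.5 CPM under siControl, 70.6 and 68.3 CPM after siCREB1 and 114 and 121 CPM after siFOXA1. BARD1 thus fell in LNCaP after siCREB1 by 1.25 on the log2 scale (SE 0.06, adjusted p = 1.63e-08) and rose 1.76-fold in LNCaP-abl after siFOXA1 (log2 change 0.82, SE 0.06, adjusted p = 1.43e-07). Its other changes were -0.04 and 0.05 and were not called.

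BRIP1, a helicase bound to BRCA1, fell from 5.81 and 6.15 CPM to 3.83 and 3.46 CPM in LNCaP after siCREB1 (log2 change -0.71, SE 0.14, adjusted p = 0.00154). Its change of -0.39 in LNCaP-abl after siFOXA1 (adjusted p = 0.0269) was not called without either siControl library (adjusted p = 0.0593 and 0.0876) or without the first siFOXA1 library (adjusted p = 0.166). PALB2, which joins BRCA1 to BRCA2, lay between 10.0 and 15.9 CPM in all 12 libraries, and its 4 changes, from -0.14 to 0.04, were not called.

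**Figure D2:**
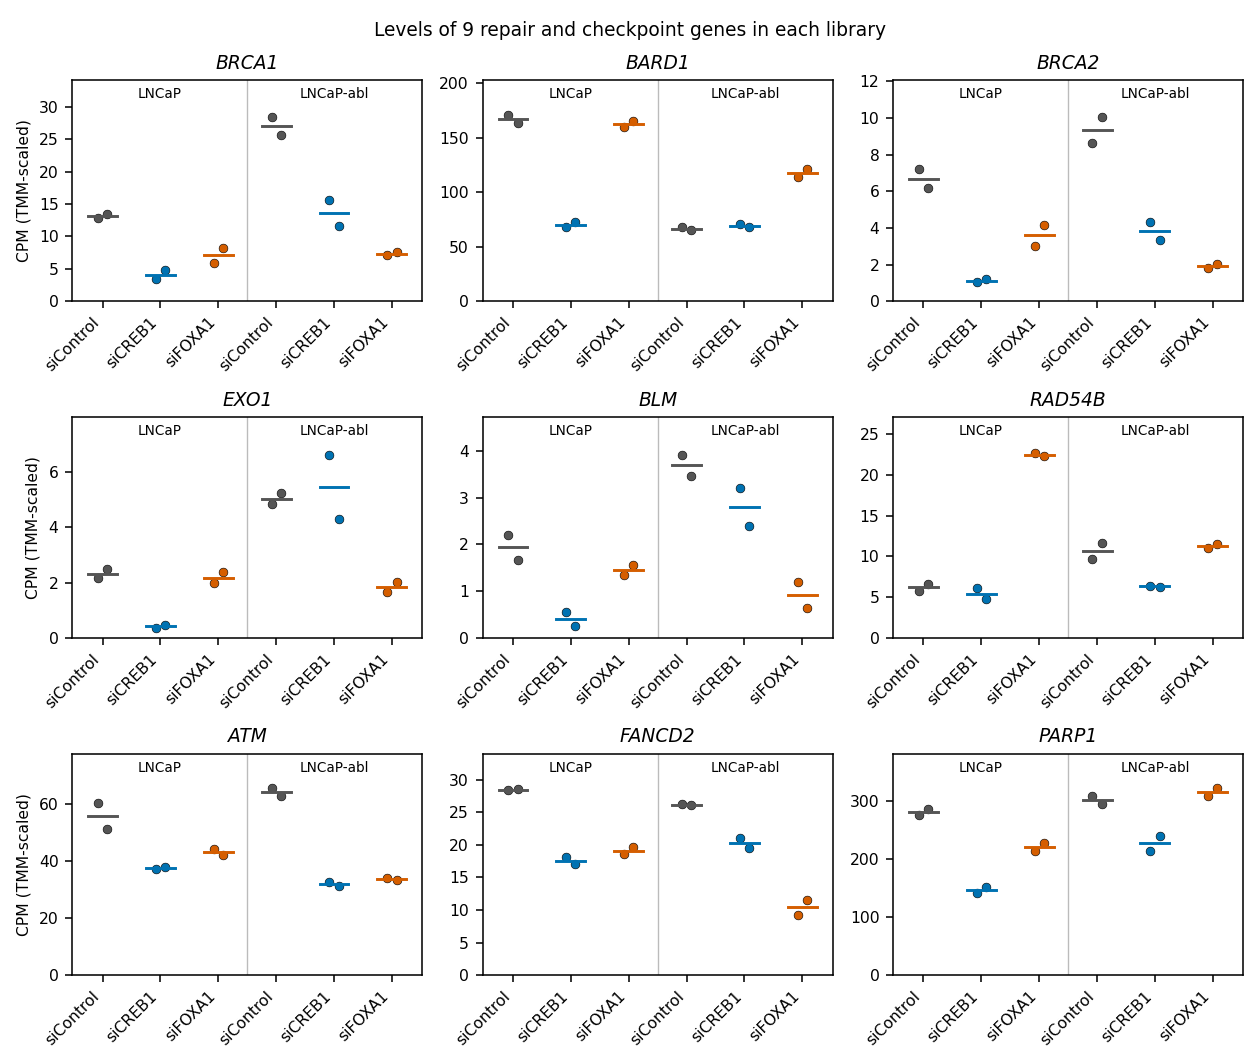
CPM of 9 genes in each library (points, linear axis from 0; each panel has its own scale), with siControl in grey, siCREB1 in blue and siFOXA1 in orange, and a line at the mean of 2 libraries. BRCA1 and BRCA2 are below control in every knockdown group, BARD1 is low in LNCaP only after siCREB1, and RAD54B is high in LNCaP only after siFOXA1.

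Among the genes of strand exchange, RAD51AP1, which helps DNA strands pair, fell in 3 of 4 comparisons. It stood at 5.49 and 6.21 CPM in LNCaP siControl, 2.36 and 2.74 CPM after siCREB1 and 4.76 and 5.66 CPM after siFOXA1. LNCaP-abl had 12.5 and 11.9 CPM, 7.07 and 6.44 CPM, and 4.04 and 2.63 CPM. In LNCaP-abl siFOXA1 left 27.1% of the control level (log2 change -1.88, SE 0.18, adjusted p = 8.21e-07). In LNCaP after siFOXA1 the change was -0.15 (adjusted p = 0.51), and the groups overlapped.

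RAD54B and RAD54L are related motor proteins that help strand exchange, and they changed differently. RAD54B stood at 5.81 and 6.66 CPM in LNCaP siControl, 6.11 and 4.81 CPM after siCREB1 and 22.6 and 22.3 CPM after siFOXA1. The rise after siFOXA1 was 3.64-fold (log2 change 1.86, SE 0.13, adjusted p = 7.58e-08), and no other of the 39 genes had a called log2 change of 1 or more in a knockdown comparison. In LNCaP-abl it stood at 9.72 and 11.7 CPM, fell to 6.40 and 6.32 CPM after siCREB1 (log2 change -0.71, SE 0.14, adjusted p = 0.000725) and stood at 11 and 11.5 CPM after siFOXA1. RAD54L fell in LNCaP from 10.4 and 12.9 CPM to 5.74 and 5.95 CPM after siCREB1 (log2 change -0.98, SE 0.13, adjusted p = 8.35e-05). In LNCaP-abl RAD54L fell from 9.11 and 9.36 CPM to 6.30 and 6.31 CPM after siFOXA1, and stood at 11.8 and 9.76 CPM after siCREB1.

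RAD51C, which carries a full CRE in its promoter window, rose in LNCaP after siFOXA1, from 16.7 and 16.2 CPM to 32.3 and 30.1 CPM (log2 change 0.92, SE 0.12, adjusted p = 3.34e-05). After siCREB1 in LNCaP it stood at 22.3 and 21.7 CPM (log2 change 0.42, adjusted p = 0.0174), a rise not called without the second siControl library (adjusted p = 0.0529) or the first siCREB1 library (adjusted p = 0.0685). XRCC2, another strand-exchange gene with a full CRE, fell in LNCaP-abl after siFOXA1 from 6.67 and 7.69 CPM to 3.72 and 3.80 CPM (log2 change -0.90, SE 0.16, adjusted p = 0.000227). XRCC2 was at 5.34 and 5.57 CPM in LNCaP siControl and 4.20 and 3.98 CPM after siCREB1, a change of -0.41 (adjusted p = 0.0466) that was not called when any 1 of the 4 libraries was left out (adjusted p 0.122 to 0.194). XRCC3, which acts with RAD51C, rose in LNCaP-abl after siCREB1 from 12.1 and 11.1 CPM to 15.4 and 15.3 CPM (log2 change 0.38, SE 0.10, adjusted p = 0.00577).

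In the Fanconi pathway FANCD2 was called lower in 4 comparisons and FANCI in 3, and no core complex gene was called in more than 2. FANCD2, the ubiquitin-marked subunit that gathers repair proteins at a crosslink, stood at 28.4 and 28.6 CPM in LNCaP siControl, 18.1 and 17.1 CPM after siCREB1 and 18.5 and 19.6 CPM after siFOXA1. LNCaP-abl had 26.4 and 26.1 CPM, 21.1 and 19.5 CPM, and 9.28 and 11.5 CPM. The log2 change was -1.33 in LNCaP-abl after siFOXA1 (SE 0.10, adjusted p = 1.41e-07), -0.69 in LNCaP after siCREB1 (SE 0.10, adjusted p = 9.39e-05) and -0.58 in LNCaP after siFOXA1 (SE 0.10, adjusted p = 0.000218). The smaller change in LNCaP-abl after siCREB1, -0.37 (adjusted p = 0.00607), was not called without the first siControl library (adjusted p = 0.0554) or the second siCREB1 library (adjusted p = 0.0651). FANCD2 has pseudogene copies, so part of its reads may be divided among them.

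FANCI, the partner of FANCD2, stood at 38.9 and 38.9 CPM in LNCaP siControl and fell to 23.1 and 25 CPM after siCREB1 (log2 change -0.69, SE 0.08, adjusted p = 2.78e-05) and to 29.0 and 29.9 CPM after siFOXA1. In LNCaP-abl it stood at 57.4 and 54.6 CPM, at 62.8 and 54.0 CPM after siCREB1, where the groups overlapped, and at 33.0 and 32.4 CPM after siFOXA1 (log2 change -0.78, SE 0.08, adjusted p = 1.93e-06). Both genes of the pair were therefore lower in 3 comparisons, and in the fourth only FANCD2 was called.

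The core complex and its DNA anchor FANCM count 8 genes. None was called in LNCaP-abl after siCREB1, and 3 fell in LNCaP after siCREB1. After siFOXA1 2 fell and 1 rose in LNCaP-abl, and 1 fell and 1 rose in LNCaP. The shares of all tested genes that fell were, in the same order, 23.7%, 19.8%, 26.5% and 25.5%. Those that rose were 27.5%, 17.8%, 29.9% and 24.4%. Outside LNCaP after siCREB1, the counts of the 8 genes lie below these shares. FANCB, a core scaffold subunit at low counts, stood at 1.39 and 1.67 CPM in LNCaP-abl siControl and 0.459 and 0.259 CPM after siFOXA1 (log2 change -2.02). FANCB in LNCaP stood at 1.05 and 1.35 CPM and at 0.331 and 0.657 CPM after siCREB1. That change, -1.23 (adjusted p = 0.0322), was not called without the first siControl library (adjusted p = 0.0557), the second (adjusted p = 0.106) or the first siCREB1 library (adjusted p = 0.238). FANCE, which binds FANCD2, fell in LNCaP after siFOXA1 from 12.2 and 11.7 CPM to 7.71 and 7.42 CPM (log2 change -0.66, SE 0.10, adjusted p = 0.000126).

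FANCL, the ubiquitin ligase of the complex, rose in LNCaP after siFOXA1 from 13.0 and 13.2 CPM to 18.1 and 17.8 CPM (log2 change 0.45, SE 0.10, adjusted p = 0.00262). In LNCaP-abl FANCL stood at 9.53 and 10.3 CPM and at 13.1 and 12.9 CPM after siFOXA1 (log2 change 0.41, adjusted p = 0.00694), not called without the first siControl library (adjusted p = 0.101). The 2 smaller falls in LNCaP after siCREB1 were FANCG (-0.42, adjusted p = 0.0182) and FANCM (-0.43, adjusted p = 0.0412). Both were lost without the first siControl library (adjusted p = 0.148 and 0.267) or the first siCREB1 library (adjusted p = 0.202 and 0.234), and FANCM also without the second (adjusted p = 0.0823). FANCE was also called in LNCaP-abl after siFOXA1, at -0.25 (adjusted p = 0.0378), and was not called when any of the 4 libraries was left out (adjusted p 0.067 to 0.188). FANCA, FANCC and FANCF changed by -0.31 to 0.15 and were not called.

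The genes that sense breaks, trim ends and process recombination intermediates all fell in LNCaP-abl after siFOXA1 (8 of 8). In the other comparisons 4 fell in LNCaP-abl after siCREB1, 5 in LNCaP after siCREB1 and 1 in LNCaP after siFOXA1, and none rose. The shares of all tested genes that fell were 26.5% in LNCaP-abl after siFOXA1 and, in the order of the other 3, 23.7%, 19.8% and 25.5%. EXO1, the exonuclease of long-range resection, carries a full CRE 54 bases before its start in the sequence shown. It stood at 2.17 and 2.50 CPM in LNCaP siControl, 0.368 and 0.474 CPM after siCREB1 and 1.98 and 2.37 CPM after siFOXA1. LNCaP-abl had 4.83 and 5.24 CPM, 6.62 and 4.29 CPM, and 1.65 and 2.03 CPM. Thus siCREB1 left 18.5% of the control level in LNCaP (log2 change -2.43, SE 0.34, adjusted p = 9.27e-05), while in LNCaP-abl its 2 siCREB1 libraries lay on either side of the controls (log2 change 0.13, adjusted p = 0.634). With siFOXA1 it fell in LNCaP-abl (log2 change -1.42, SE 0.24, adjusted p = 0.00017) and changed by -0.08 in LNCaP (adjusted p = 0.827).

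BLM, the helicase that unwinds ends and dissolves crossed strands, was at low counts. It stood at 2.20 and 1.67 CPM in LNCaP siControl, 0.552 and 0.255 CPM after siCREB1 and 1.35 and 1.57 CPM after siFOXA1. LNCaP-abl had 3.92 and 3.45 CPM, 3.20 and 2.39 CPM, and 1.19 and 0.648 CPM. It fell in LNCaP after siCREB1 (log2 change -2.28, SE 0.38, adjusted p = 0.000385) and in LNCaP-abl after siFOXA1, where 24.4% was left.

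RBBP8 encodes CtIP, which opens resection together with MRE11, and it changed in LNCaP-abl and not in LNCaP. LNCaP-abl had 30.4 and 32.5 CPM under siControl, 21.0 and 18.4 CPM after siCREB1 (log2 change -0.67, SE 0.09, adjusted p = 2.23e-05) and 14.6 and 14.3 CPM after siFOXA1 (log2 change -1.12, SE 0.09, adjusted p = 1.61e-07). In LNCaP all 6 libraries lay between 23.4 and 27.4 CPM, and the changes of 0.06 and 0.15 were not called.

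EME1, a subunit of a nuclease that cuts joined DNA molecules, fell in LNCaP-abl after siFOXA1 from 20.7 and 21.7 CPM to 10.1 and 10.1 CPM (log2 change -1.06, SE 0.14, adjusted p = 1.39e-05). Its siCREB1 changes were -0.46 in LNCaP-abl (15.8 and 14.8 CPM) and -0.40 in LNCaP (10.6 and 12.6 to 7.47 and 9.96 CPM). The first was lost without the second siCREB1 library (adjusted p = 0.0664), and the second without the second siControl library (adjusted p = 0.192) or the first siCREB1 library (adjusted p = 0.386). DNA2, a resection nuclease and helicase, changed by -0.38 in LNCaP-abl after siFOXA1 (adjusted p = 0.0172), which was lost without either siControl library (adjusted p = 0.0627 and 0.0547) or without the second siFOXA1 library (adjusted p = 0.0946).

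RAD50, the coiled-coil ATPase of the sensor complex, stood at 83.1 and 85.4 CPM in LNCaP siControl, 69.4 and 70.2 CPM after siCREB1 and 64.9 and 66.8 CPM after siFOXA1. LNCaP-abl had 79.4 and 78.8 CPM, 66.7 and 68.0 CPM, and 60.6 and 66.6 CPM. The 4 log2 changes lay between -0.36 and -0.23, and the groups did not overlap in either line. In LNCaP-abl after siCREB1 the call was lost without the first siControl library (adjusted p = 0.056) or the first siCREB1 library (adjusted p = 0.0505). MRE11A, the nuclease, fell in LNCaP-abl after siFOXA1 from 19.5 and 21.1 CPM to 11.8 and 14.3 CPM (log2 change -0.62, SE 0.11, adjusted p = 0.000229).

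NBN, the subunit that recruits ATM, changed by -0.23 in LNCaP-abl after siFOXA1, -0.20 there after siCREB1 and -0.22 in LNCaP after siCREB1, and by -0.00 in LNCaP after siFOXA1. All 3 NBN calls were lost in some fit with 1 library left out. They were lost without the first siFOXA1 library (adjusted p = 0.0652), without the first (adjusted p = 0.0587) or second (adjusted p = 0.0526) LNCaP-abl siControl library or the first LNCaP-abl siCREB1 library (adjusted p = 0.117), and without the second LNCaP siControl library (adjusted p = 0.0765) or the first LNCaP siCREB1 library (adjusted p = 0.131).

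ATM, the kinase activated by broken ends, fell in all 4 comparisons. It stood at 60.1 and 51.3 CPM in LNCaP siControl, 37.1 and 37.8 CPM after siCREB1 and 44.2 and 42.1 CPM after siFOXA1. LNCaP-abl had 65.6 and 62.7 CPM, 32.6 and 31.1 CPM, and 34.0 and 33.1 CPM. In LNCaP-abl siCREB1 left 49.5% of the control level (log2 change -1.01, SE 0.08, adjusted p = 2.38e-07) and siFOXA1 left 52.2% (log2 change -0.94, SE 0.08, adjusted p = 2.85e-07). Their difference in that line was -0.08 (SE 0.08, adjusted p = 0.498). In LNCaP siCREB1 left 66.9% and siFOXA1 77.1%.

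ATR, the kinase of stalled replication forks, stood at 43.0 and 43.2 CPM in LNCaP siControl and fell to 32.0 and 32.9 CPM after siCREB1 (log2 change -0.41, SE 0.09, adjusted p = 0.00227). Its change of -0.24 in LNCaP-abl after siCREB1 (adjusted p = 0.0389) was lost without the first siControl library (adjusted p = 0.44) or either siCREB1 library (adjusted p = 0.166 and 0.103). TOPBP1, which switches ATR on, fell in LNCaP-abl after siFOXA1 from 40.0 and 38.7 CPM to 23.4 and 25.8 CPM (log2 change -0.68, SE 0.08, adjusted p = 6.24e-06). In LNCaP it changed by -0.32 after each knockdown, and the siFOXA1 call was lost without the first siFOXA1 library (adjusted p = 0.06).

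CHEK1, the effector kinase of ATR, went in opposite directions. It stood at 20.4 and 17.9 CPM in LNCaP-abl siControl, 26.1 and 24.6 CPM after siCREB1 and 27.8 and 28.6 CPM after siFOXA1. The rises were 0.38 (SE 0.09, adjusted p = 0.00416) and 0.53 (SE 0.09, adjusted p = 0.000254) on the log2 scale. In LNCaP it stood at 17.4 and 17.4 CPM, at 12.6 and 14.0 CPM after siCREB1 (log2 change -0.39, adjusted p = 0.007) and at 21.6 and 19.3 CPM after siFOXA1, which was not called. The fall after siCREB1 was lost without the first siCREB1 library (adjusted p = 0.0901).

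CHEK2, the effector kinase of ATM, rose in LNCaP after siFOXA1 from 7.80 and 8.52 CPM to 12.2 and 11.9 CPM (log2 change 0.57, SE 0.13, adjusted p = 0.00199), where ATM fell. Its other 3 changes, from -0.23 to 0.30, were not called. CHEK2 has many pseudogene copies, so its counts are uncertain.

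Of the end-joining genes, which seal breaks without a template, PRKDC fell in 3 of 4 comparisons, and its LNCaP libraries lay far apart within each group. This catalytic kinase subunit stood at 352 and 261 CPM in LNCaP siControl, 153 and 202 CPM after siCREB1 and 149 and 205 CPM after siFOXA1. LNCaP-abl had 306 and 269 CPM, 244 and 231 CPM, and 169 and 168 CPM. The log2 change was -0.79 in LNCaP after siCREB1 (SE 0.16, adjusted p = 0.0015), -0.79 after siFOXA1 (SE 0.16, adjusted p = 0.000881) and -0.78 in LNCaP-abl after siFOXA1 (SE 0.16, adjusted p = 0.000835). In LNCaP-abl after siCREB1 it was -0.28 (adjusted p = 0.16).

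LIG4, the ligase of the route and a full-CRE carrier in the third of its windows, stood at 22.2 and 20.5 CPM in LNCaP-abl siControl and 17.4 and 15.8 CPM after siCREB1. That change, -0.38 (adjusted p = 0.00356), was lost without the first siControl library (adjusted p = 0.0871) or the second siCREB1 library (adjusted p = 0.0521). XRCC4, the partner of LIG4, stood at 4.40 and 5.12 CPM in LNCaP siControl and 6.91 and 6.42 CPM after siFOXA1. Its change of 0.50 (adjusted p = 0.0164) was lost without the first siControl library (adjusted p = 0.129) or the first siFOXA1 library (adjusted p = 0.0793).

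PARP1, the sensor of single-strand breaks, fell in LNCaP after siCREB1 from 275 and 287 CPM to 142 and 151 CPM (log2 change -0.94, SE 0.07, adjusted p = 5.48e-07), and to 213 and 227 CPM after siFOXA1 (log2 change -0.35, SE 0.07, adjusted p = 0.000833). In LNCaP-abl it fell from 309 and 294 CPM to 214 and 240 CPM after siCREB1 (log2 change -0.41, SE 0.07, adjusted p = 0.0002) and stood at 308 and 322 CPM after siFOXA1. MSH6, a subunit of the mismatch sensor, fell in LNCaP from 47.9 and 51.0 CPM to 34.9 and 36.7 CPM after siCREB1 and to 33.5 and 34.4 CPM after siFOXA1. In LNCaP-abl MSH6 rose from 27.7 and 23.3 CPM to 33.2 and 31.9 CPM after siCREB1 (log2 change 0.32, SE 0.09, adjusted p = 0.00663).

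After siCREB1 the changes of the 4 full-CRE carriers were as follows. In LNCaP EXO1 changed by -2.43, XRCC2 by -0.41, LIG4 by -0.17 and RAD51C by 0.42 on the log2 scale. In LNCaP-abl the 4 changes were 0.13, -0.12, -0.38 and 0.18 in the same order. EXO1, XRCC2 and RAD51C were called in LNCaP, and LIG4 alone in LNCaP-abl. Of these calls only that of EXO1 held in every fit with 1 library left out. BRCA1, BRCA2 and ATM, which fell after siCREB1 in both lines, had no full CRE in their windows. The shorter core TGACG, which is also part of the full CRE, stood in windows of 18 of 35 genes (51.4%), BRCA1 and BRCA2 among them, and in 28.4% of all genes. The part of these sites in the changes was not tested.

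Whether a knockdown acted alike in the 2 lines was tested as the difference between the 2 effects, LNCaP-abl minus LNCaP. For siCREB1 the difference was called for 13 of 39 genes beside 25.5% of all genes, with 11 above 0 and 2 below, where 14.8% of all genes were above and 10.8% below. A value above 0 means that the gene was lower after siCREB1 in LNCaP relative to its change in LNCaP-abl. EXO1 differed by 2.56 (SE 0.40, adjusted p = 0.000404), BRCA2 by 1.33 (SE 0.30, adjusted p = 0.00483), BARD1 by 1.31 (SE 0.09, adjusted p = 3.89e-07) and RAD54L by 1.20 (SE 0.19, adjusted p = 0.000415). The 2 below 0 were RBBP8 (-0.73, SE 0.12, adjusted p = 0.000632) and ATM (-0.43, SE 0.11, adjusted p = 0.011). BRCA1, at 0.70 (SE 0.26, adjusted p = 0.0602), was not called. The levels of CREB1 left also differed, since the fall of CREB1 itself was smaller in LNCaP-abl by 0.47 (adjusted p = 0.0208). That call was lost without the second LNCaP siCREB1 library (adjusted p = 0.0759), the first LNCaP-abl siControl library (adjusted p = 0.064) or the first LNCaP-abl siCREB1 library (adjusted p = 0.0828).

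For siFOXA1 the difference was called for 22 of 39 genes beside 32.6% of all genes, with 4 above 0 and 18 below, where 17.9% and 14.7% of all genes were. Of the 18, RAD54B, RAD51C, CHEK2 and XRCC4 rose in LNCaP and were not called in LNCaP-abl. RAD54B differed by -1.75 (SE 0.18, adjusted p = 1.04e-05), RAD51AP1 by -1.73 (SE 0.25, adjusted p = 0.000148), BRCA2 by -1.35 (SE 0.28, adjusted p = 0.00226) and RBBP8 by -1.27 (SE 0.12, adjusted p = 4.92e-06). BARD1 was above 0, at 0.86 (SE 0.09, adjusted p = 8.01e-06), as were MSH6, FANCE and PARP1. FOXA1 itself fell less in LNCaP-abl, by a difference of 0.49 (adjusted p = 0.00584). The FOXA1 levels left were alike, at 215 and 211 CPM in LNCaP and 196 and 229 CPM in LNCaP-abl. Its siControl level was the lower in LNCaP-abl, at 556 and 504 CPM against 799 and 695 CPM in LNCaP. Without the second LNCaP siFOXA1 library, 11 genes were called below 0. Without the first siControl library of both lines, 8 were called below 0 for siFOXA1 and 7 above 0 for siCREB1, and BRCA2 for siCREB1 (1.05, adjusted p = 0.0676) and BRCA1 for siFOXA1 (-0.89, adjusted p = 0.0643) were not called.

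**Figure D3:**
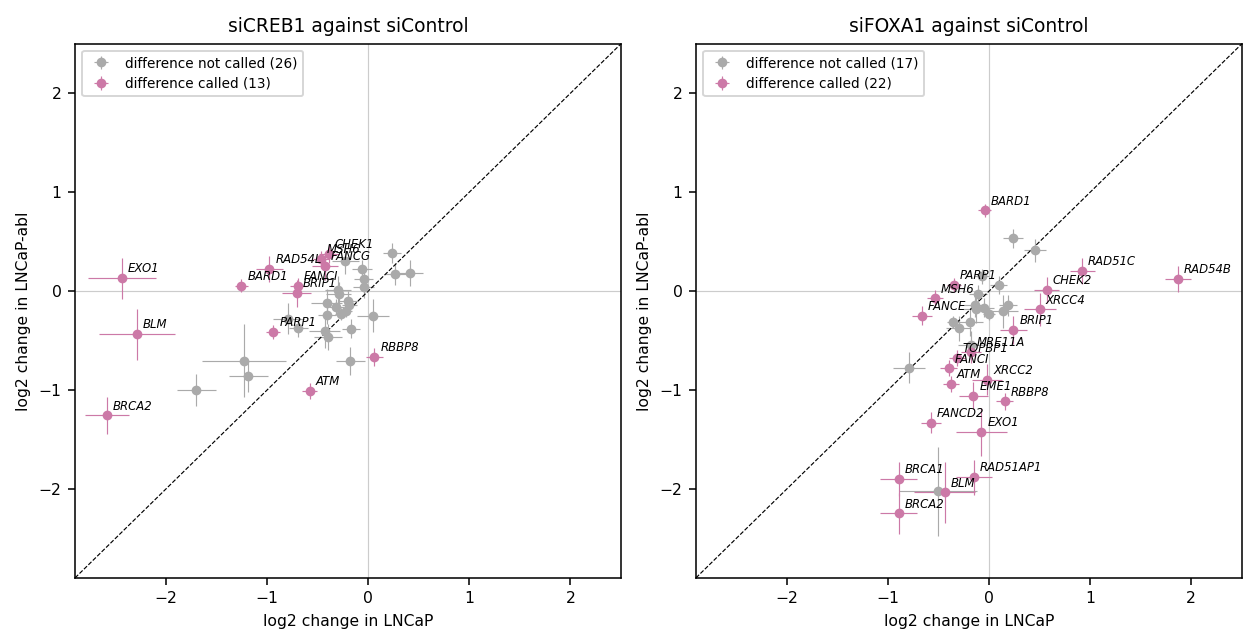
Log2 change in LNCaP (horizontal) against LNCaP-abl (vertical) for the 39 tested genes, with bars of 1 SE and a dashed line where both are equal; purple points are genes whose difference between lines was called (13 for siCREB1, 22 for siFOXA1). With siCREB1 most purple points lie above the line, and with siFOXA1 most lie below it.

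The 2 knockdowns were also set against each other directly within a line. In LNCaP 21 of 39 genes were lower after siCREB1 than after siFOXA1 and 1, FANCE, was higher, beside 22.5% and 20.6% of all genes. In LNCaP-abl 22 were higher after siCREB1 and 5 lower, beside 20.0% and 21.0% of all genes. EXO1 differed by -2.36 (SE 0.33, adjusted p = 5.66e-05) in LNCaP and by 1.55 (SE 0.23, adjusted p = 0.000112) in LNCaP-abl, and BRCA2 by -1.69 (SE 0.24, adjusted p = 5.43e-05) and 0.99 (SE 0.22, adjusted p = 0.00274). BARD1, RAD54B, PARP1 and LIG4 were lower after siCREB1 than after siFOXA1 in both lines. For LIG4 the difference was -0.44 in LNCaP-abl (adjusted p = 0.00149) and -0.26 in LNCaP (adjusted p = 0.0228). The LNCaP call was lost without the second siCREB1 library (adjusted p = 0.18) or without the first (adjusted p = 0.101) or second siFOXA1 library (adjusted p = 0.0789). The count of 21 in LNCaP was 12 without the second siFOXA1 library.

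Under siControl the lines differed in 24 of the 39 genes, a count near the share over all genes, 63.6%. In LNCaP-abl 14 were higher and 10 lower, beside 30.5% and 33.1% of all genes. Line, growth medium and passage cannot be told apart in this comparison. EXO1 was 2.16-fold higher in LNCaP-abl (log2 change 1.11, SE 0.23, adjusted p = 0.00089), RAD51AP1 2.12-fold (1.08, SE 0.17, adjusted p = 6.07e-05) and BRCA1 2.07-fold (1.05, SE 0.17, adjusted p = 7.79e-05). EME1 (0.88, SE 0.13), NBN (0.76, SE 0.06) and RAD54B (0.75, SE 0.14) were also higher. The lower genes were led by BARD1 (-1.33, SE 0.06, adjusted p = 4.68e-10), MSH6 (-0.92, SE 0.09, adjusted p = 3.84e-07) and XRCC3 (-0.84, SE 0.10, adjusted p = 4.39e-06). BRCA1 and BARD1, which work as a pair, thus differed in opposite directions between the lines. The G2 and mitosis genes were higher in LNCaP-abl for 11 of 14, and of 14 S phase genes 8 were lower and 3 higher. Their part in the differences was not tested. The 10 lower calls became 6 without the first LNCaP-abl siControl library and 5 without the first siControl library of both lines, and 14 of the 24 calls held in every fit with 1 library left out.

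**Figure D4:**
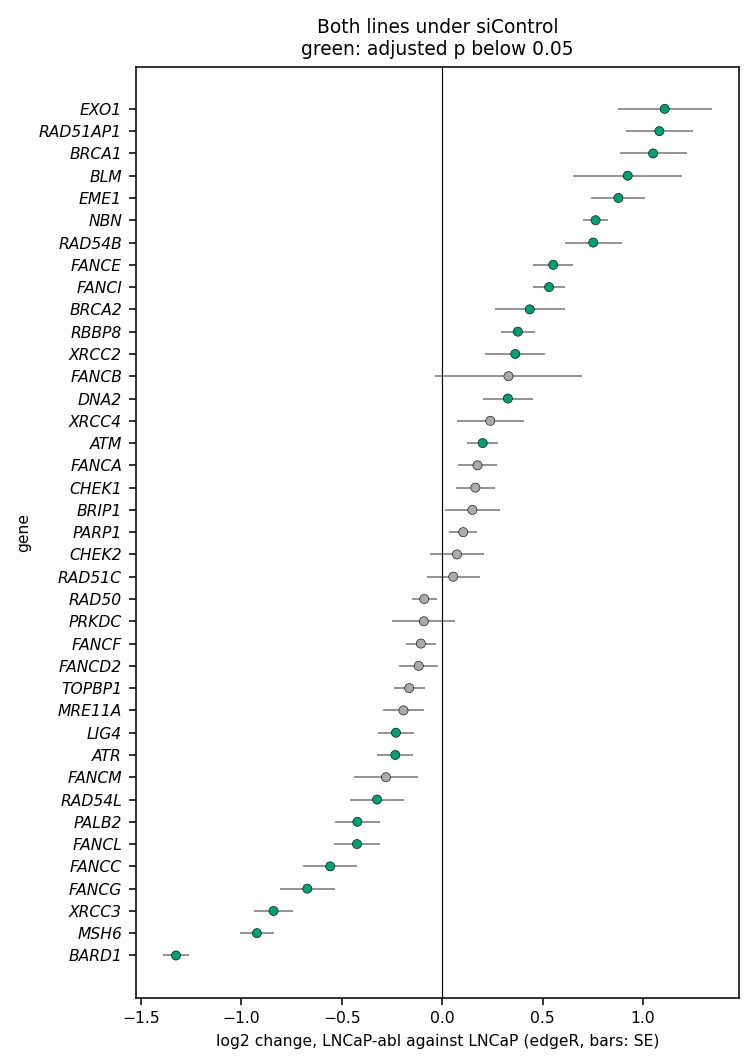
Log2 difference between LNCaP-abl and LNCaP under siControl for the 39 tested genes (points, with bars of 1 SE), sorted by size; green points passed an adjusted p below 0.05. EXO1, RAD51AP1 and BRCA1 stand at the upper end and BARD1 at the lower end.

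Another 60 repair genes that are not among the 40, of 61 looked for, were counted in the same fit. In LNCaP after siCREB1 14 of the 60 fell and 10 rose (median -0.07), beside 19.8% and 17.8% of all tested genes. In LNCaP-abl after siFOXA1 22 fell and 12 rose (median -0.10), beside 26.5% and 29.9%. In LNCaP-abl after siCREB1 17 fell and 20 rose (median 0.09), beside 23.7% and 27.5%. In LNCaP after siFOXA1 11 fell and 13 rose (median -0.00), beside 25.5% and 24.4%. Most of these counts lie near the share over all genes. POLQ, the polymerase of microhomology-mediated joining, fell in LNCaP after siCREB1 from 7.26 and 6.85 CPM to 1.29 and 1.46 CPM (log2 change -2.36, SE 0.24, adjusted p = 6.64e-06). CLSPN, which brings CHEK1 to ATR, fell there too, from 5.99 and 6.53 CPM to 1.99 and 2.48 CPM (log2 change -1.48, SE 0.18, adjusted p = 3.07e-05).

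MDC1, an adaptor on marked chromatin, fell in LNCaP-abl from 99.4 and 109 CPM to 40.6 and 45.9 CPM after siCREB1 (log2 change -1.26, SE 0.10, adjusted p = 3.00e-07) and to 30.2 and 38.7 CPM after siFOXA1 (log2 change -1.59). EME2, a relative of EME1, rose where EME1 fell: in LNCaP-abl after siFOXA1 it went from 24.1 and 23.5 CPM to 82.8 and 86.2 CPM (log2 change 1.82, SE 0.12, adjusted p = 1.87e-08). EME2 also rose in LNCaP after siFOXA1 (log2 change 1.58, SE 0.12, adjusted p = 1.27e-07). UBE2T, the conjugating enzyme of the Fanconi ligase, rose in LNCaP-abl after siCREB1 from 20.0 and 21.4 CPM to 44.7 and 39.5 CPM (log2 change 1.03, SE 0.10, adjusted p = 1.05e-06). Over the same comparison USP1, which removes ubiquitin from FANCD2, fell from 75.1 and 71.8 CPM to 38.2 and 38.0 CPM (log2 change -0.95, SE 0.09, adjusted p = 8.95e-07).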

How the data were processed

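RNA-seq of 12 libraries was analysed, 2 in each of 6 groups. The authors deposited raw read counts per gene. The submitters' processing notes name hg19 with HTSeq 0.5.3p9, Bowtie2 2.1.0, TopHat2 2.0.8 and CASAVA 1.8. Annotation and strand setting are not given in the sources used here. No strand information is kept by the kit, per the labels' protocols, which leaves antisense and overlapping genes uncertain. The authors' deposited tables of each knockdown give log2 fold changes with p-values, tied by the same notes to edgeR 3.0.6. Columns headed SIC were taken as siControl, and their 8 repeats across tables were identical and used once. Libraries of a group differed beyond sampling noise (chi-square per degree of freedom 4.47 to 10.6, over genes with at least 30 counts over both libraries).

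Rows naming no gene were left out (no feature 54.8% to 58.3%, ambiguous 0.774% to 0.924% of reads). Of 23230 genes, 15550 passed filterByExpr and were fitted together in edgeR 4.0.16 under R 4.3.3 (TMM scaling, quasi-likelihood F-test, two-sided, 6 residual degrees of freedom). P-values are Benjamini-Hochberg adjusted over all 15550 genes. SE is the absolute log2 change over the square root of F. The procedure was tested on simulated data. All 40 genes could be named, with full values for up to 12 falls and 6 rises per comparison; of the other repair genes, up to 6 per comparison. The genes, gene lists and tests were chosen with earlier results of these data known. Alternatives were other scaling (RLE, upper quartile), DESeq2 1.42.0, no low-count filter, only the compared groups, a replicate block and left-out libraries. Promoter windows are RefSeq's on GRCh38.p14. The ChIP-seq samples were not used here. A result for 1 of the other repair genes is not reported here.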

Additional observations from a re-analysis of the deposited data

Results flagged for a closer look

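Knockdown effects that differed between the lines, by the test of the difference itself in the edgeR fit (LNCaP-abl minus LNCaP, log2 scale, adjusted p in parentheses), are listed here for all 39 tested genes; no explanation was tested. For siCREB1 13 genes differed. Below 0 were RBBP8 at -0.73 (0.000632) and ATM at -0.43 (0.011). Above 0 were EXO1 at 2.56 (0.000404), BLM at 1.85 (0.00984), BRCA2 at 1.33 (0.00483), BARD1 at 1.31 (3.89e-07) and RAD54L at 1.20 (0.000415). Also above 0 were MSH6 at 0.79 (0.000312), CHEK1 at 0.77 (0.00105), FANCI at 0.75 (0.000347), BRIP1 at 0.69 (0.0195), FANCG at 0.68 (0.017) and PARP1 at 0.52 (0.00147). Of the 13, 10 held in every fit with 1 library left out. The BLM call was lost without the first LNCaP siControl library (0.053) or the second LNCaP siCREB1 library (0.0677). FANCG was lost without the first LNCaP siControl (0.0642), first LNCaP siCREB1 (0.0883) or first LNCaP-abl siCREB1 library (0.0891). BRIP1 was lost without the second LNCaP siCREB1 (0.07), first LNCaP-abl siControl (0.114) or first LNCaP-abl siCREB1 library (0.067).

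For siFOXA1 22 genes differed. The recombination genes RAD54B at -1.75 (1.04e-05), RAD51AP1 at -1.73 (0.000148), BRCA2 at -1.35 (0.00226), BRCA1 at -1.01 (0.00796), XRCC2 at -0.88 (0.00657), RAD51C at -0.72 (0.00691) and BRIP1 at -0.63 (0.0214) were below 0, and BARD1 was above 0 at 0.86 (8.01e-06). Of the processing genes, BLM stood at -1.60 (0.0127), EXO1 at -1.35 (0.00929), RBBP8 at -1.27 (4.92e-06), EME1 at -0.90 (0.00268) and MRE11A at -0.44 (0.0346). The Fanconi genes were FANCD2 at -0.76 (0.00109), FANCI at -0.38 (0.0208) and FANCE at 0.41 (0.0372). The checkpoint and other genes were ATM at -0.56 (0.00152), CHEK2 at -0.56 (0.0323), TOPBP1 at -0.36 (0.022), XRCC4 at -0.69 (0.032), PARP1 at 0.41 (0.00529) and MSH6 at 0.46 (0.00891). Of the 22, 12 held in every fit with 1 library left out.

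The other calls for siFOXA1 were lost as follows. Without the first LNCaP siControl library these were BRIP1 (0.0597), CHEK2 (0.093), FANCE (0.123), MRE11A (0.0885), TOPBP1 (0.0625) and XRCC4 (0.114). Without the first LNCaP siFOXA1 library they were CHEK2 (0.0809), FANCE (0.0814), MRE11A (0.0586) and XRCC4 (0.0894), and without the second they were BLM (0.0539), BRCA1 (0.063), BRIP1 (0.0542), CHEK2 (0.0637), FANCE (0.129), FANCI (0.0624), MRE11A (0.0827) and TOPBP1 (0.0797). The first LNCaP-abl siControl library decided BLM (0.063), CHEK2 (0.206), FANCE (0.164), FANCI (0.0796), RAD51C (0.13) and TOPBP1 (0.074), and the second BRIP1 (0.052), MRE11A (0.0824) and XRCC4 (0.0826). Leaving out the first LNCaP-abl siFOXA1 library lost BRIP1 (0.0717), FANCE (0.0572), MRE11A (0.132) and TOPBP1 (0.0796), and leaving out the second lost BLM (0.0677), CHEK2 (0.129), FANCE (0.124), FANCI (0.06) and XRCC4 (0.113).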

How the results depend on the processing

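Over all alternatives, 2090 of 2370 values of called genes kept direction and call, 280 kept direction without passing the threshold and 0 reversed. The count of genes higher in LNCaP after siCREB1, 1 as reported, was 3 with RLE scaling, 2 with upper-quartile scaling and 2 with the replicate block. Without the first siControl library of both lines it was 2, with a median of -0.335; genes lower in LNCaP-abl than LNCaP were then 5, line differences above 0 for siCREB1 7 and below 0 for siFOXA1 8. With 1 library left out, that first count ranged from 0 to 2 and the LNCaP siCREB1 median from -0.386 to -0.317. The median ranged from -0.188 to -0.034 for siFOXA1 in LNCaP, from -0.420 to -0.222 for siFOXA1 in LNCaP-abl, from 0.197 to 0.328 for the siCREB1 line difference and from 0.339 to 0.445 for siCREB1 against siFOXA1 in LNCaP-abl. Lower calls ranged from 8 to 12 for siCREB1 in LNCaP-abl, from 6 to 8 for LNCaP-abl against LNCaP, from 11 to 18 for the siFOXA1 line difference and from 12 to 19 for siCREB1 against siFOXA1 in LNCaP. A left-out library leaves its group with 1, assumed to vary like the other groups. The replicate block lost 1 call, RAD54L between the lines (adjusted p = 0.0538), and added FANCF and XRCC3 after siCREB1 in LNCaP, FANCM after siCREB1 in LNCaP-abl and NBN in the siFOXA1 line difference. Library numbers were not taken as pairing the samples, since not every pair of groups had correlated deviations over 0.1 (7 of 15 did, r from -0.165 to 0.519). For motifs, the core TGACG gave 18 genes where the full CRE gave 4. Peaks at start sites, with both alternatives, were not run, since no hg19 gene positions were used here. Genes at a few CPM, such as BLM, EXO1, BRCA2 and FANCB, rest on few counts and have the larger SEs. The causes of these shifts were not tested.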

Other observations

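In the authors' deposited table for each knockdown, 17 of the 40 genes were listed for siCREB1 in LNCaP-abl, 22 for siFOXA1 in LNCaP-abl, 20 for siCREB1 in LNCaP and 16 for siFOXA1 in LNCaP. All listed genes had the same sign as in the fit reported here. PRKDC and FANCM were listed for siCREB1 in LNCaP-abl in the authors' deposited table and were not called here. ATR in that comparison, BRIP1 and FANCE for siFOXA1 in LNCaP-abl, and EME1, FANCM, NBN, RAD50 and XRCC2 for siCREB1 in LNCaP were called here and not listed in the authors' deposited tables.

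The CCAAT box, a common promoter element, stood in promoter windows of 17 of the 35 matched genes (48.6%) and in 39.7% of all genes with a window. The cell cycle element TTTGAA stood in 3 of 35 (BRIP1, FANCC and ATM) and in 18.2% of all genes. The E2F-type site TTTGGCGC stood in 0 of 35 and in 0.795% of all genes.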
